A study of Homo sapiens with 4 samples.

Results

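The regions described here were 387 RNA polymerase II (Pol II) peaks at least 1500 bp wide, out of 18237 peaks that the deposited lists held on chromosomes 1 to 22 and X. They were chosen by their width, the distance from the first to the last base of a peak. Of them, 41 came from the 3916 shLacZ peaks (1.05%) and 346 from the 14321 shRRN3 peaks (2.42%). Neighbouring members were merged into 339 separate loci.

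The peaks came from chromatin immunoprecipitation and sequencing (ChIP-seq) of Pol II in SK-OV-3, a human ovarian cancer cell line. The study examined Pol II after knockdown of RRN3, which RNA polymerase I needs to start transcription. The knockdown hairpin targeted RRN3 (shRRN3) and the control hairpin targeted LacZ, a bacterial gene (shLacZ), with 1 Pol II library and 1 input library for each hairpin and no replicate. The input libraries were not analysed here.

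Pol II transcribes protein-coding genes and most long non-coding RNAs. It pauses just downstream of the transcription start site (TSS) of many genes, moves through the gene body, and goes on past the transcription termination site (TTS), where the transcript is cleaved, until it leaves the template. A peak caller reports a wide peak where enriched signal runs on without a break, as can happen over short and heavily transcribed genes, over paired promoters that face away from each other, and over the stretch beyond a gene's end.

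Since a hairpin had 1 library, no test between hairpins was possible, and no p-value is given. Shares carry exact (Clopper-Pearson) 95% intervals and differences Newcombe intervals, and both cover counting error only. The lists hold no counts, so read depth is unknown from them. The lists give each peak a score from the peak caller, whose definition is not given in the sources used here. Scores of the separate lists were not put on 1 scale. The shRRN3 list held 3.66 times as many peaks of any width as the shLacZ list, so a difference between hairpins cannot be told apart from a difference between libraries.

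The regions fell into very different sequence. Below are 200 bases at the centre of the widest shLacZ peak and of the widest shRRN3 peak, on the plus strand of GRCh38. Both lie in 1 stretch of chromosome 3, between 168 and 170 Mb, and are shown because the widest members of both lists were there, and capitals mark CpG dinucleotides.
Widest shLacZ peak (chr3:168988023-168988222): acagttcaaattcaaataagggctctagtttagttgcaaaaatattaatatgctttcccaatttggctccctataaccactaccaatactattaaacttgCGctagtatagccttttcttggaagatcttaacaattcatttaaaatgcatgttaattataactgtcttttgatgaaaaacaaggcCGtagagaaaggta
Widest shRRN3 peak (chr3:168956222-168956421): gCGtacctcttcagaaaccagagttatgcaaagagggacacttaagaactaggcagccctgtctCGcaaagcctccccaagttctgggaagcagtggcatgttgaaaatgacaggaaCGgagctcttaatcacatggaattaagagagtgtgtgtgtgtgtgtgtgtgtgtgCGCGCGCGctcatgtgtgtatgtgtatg
The first of these windows was 32.0% G and C. The 23 shLacZ members that held no protein-coding gene had a median GC content of 35.8% and a median ratio of observed to expected CpG of 0.21. In the 84 such shRRN3 peaks the medians were 42.4% and 0.22. The chromosome 3 stretch lowered these values: without it the median GC content was 44.03% in 8 shLacZ and 46.8% in 61 shRRN3 peaks. Members that held a TSS were CpG-rich, with a median GC content of 57.0% and a CpG ratio of 0.72 in 156 shRRN3 peaks. Narrower shRRN3 peaks with a TSS were higher still, at 62.5% and 0.82.

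The 250 bases before the start of 5 genes whose TSS lay in a wide shRRN3 peak are given next, from RefSeq on GRCh38.p14 and in the direction of transcription. They were taken as examples with and without a TATA box word, and capitals mark TATAAA on either strand.
H3C1 (chr6:26020201-26020450, plus strand): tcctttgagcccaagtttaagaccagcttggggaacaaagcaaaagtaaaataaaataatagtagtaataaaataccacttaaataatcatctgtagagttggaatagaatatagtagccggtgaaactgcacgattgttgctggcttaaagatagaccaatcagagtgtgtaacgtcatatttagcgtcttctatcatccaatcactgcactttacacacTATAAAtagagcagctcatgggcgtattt
H2BC5 (chr6:26157871-26158120, plus strand): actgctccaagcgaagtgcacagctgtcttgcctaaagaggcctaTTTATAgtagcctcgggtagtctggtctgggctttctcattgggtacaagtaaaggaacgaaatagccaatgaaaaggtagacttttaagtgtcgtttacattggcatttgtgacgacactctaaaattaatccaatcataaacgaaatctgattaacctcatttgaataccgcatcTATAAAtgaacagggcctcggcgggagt
F3 (chr1:94541760-94542009, minus strand): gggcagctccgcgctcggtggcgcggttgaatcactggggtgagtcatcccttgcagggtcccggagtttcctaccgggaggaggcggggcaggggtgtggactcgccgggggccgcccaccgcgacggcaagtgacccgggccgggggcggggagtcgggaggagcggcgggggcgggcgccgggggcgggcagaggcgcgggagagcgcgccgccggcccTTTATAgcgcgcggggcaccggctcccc
RPS12 (chr6:132814319-132814568, plus strand): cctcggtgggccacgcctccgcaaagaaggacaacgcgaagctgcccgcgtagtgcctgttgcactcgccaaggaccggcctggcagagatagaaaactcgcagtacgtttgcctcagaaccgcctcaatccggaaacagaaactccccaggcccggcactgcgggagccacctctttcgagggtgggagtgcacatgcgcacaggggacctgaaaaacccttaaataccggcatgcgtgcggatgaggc
RPL19 (chr17:39200033-39200282, plus strand): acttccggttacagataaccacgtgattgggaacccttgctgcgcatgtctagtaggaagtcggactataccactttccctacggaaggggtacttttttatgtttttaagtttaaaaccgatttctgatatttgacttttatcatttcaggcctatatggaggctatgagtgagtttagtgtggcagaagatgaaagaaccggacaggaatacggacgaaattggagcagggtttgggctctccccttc
Of 223 genes with a TSS in a wide shRRN3 peak, 185 matched a RefSeq promoter. TATAAA, searched on both strands, was present in 26 of them (14.1%, interval 9.39% to 19.9%), against 5.56% of 3436 matched genes with a TSS in a narrower shRRN3 peak and 9.24% of all 15315 protein-coding promoters. The difference from the narrower peaks was 8.50 percentage points (4.14 to 14.3). The 26 included 4 histone genes (H3C1, H2BC5, H2BC11 and H2AC11, the last 2 being divergent neighbours), the ribosomal protein genes RPL3 and RPLP0, the stress regulator ATF4, the coagulation initiator F3 and the differentiation inhibitor ID1. CCGGAAG, the core word of ETS factor sites, was less common, in 14.6% against 22.7% (difference -8.11 points, -12.7 to -2.14). The GC box word GGGCGG was in 63.2% against 67.5% and CCAAT in 42.2% against 38.6%, and both differences had intervals that spanned 0. Of the 14 genes with a TSS in a wide shLacZ peak 13 matched, too few to set these shares apart. A word is a run of letters and not a binding site.

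Wide peaks also lay over microRNA genes. Of 1558 hairpins in the RefSeq table, 1 lay wholly in a wide shLacZ peak and 7 in wide shRRN3 peaks. Hairpins of 1 chromosome are among the 1558 but were left out of the search, so the 7 covers the other chromosomes only. Mature sequences of the best known are shown with bases 2 to 8, the seed that pairs with targets, in capitals.
hsa-miR-21-5p: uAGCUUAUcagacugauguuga
hsa-let-7i-5p: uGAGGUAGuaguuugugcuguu
The MIR21 hairpin (chr17:59841266-59841337, plus strand) was inside the 4682 bp shRRN3 peak near the end of VMP1, and no shLacZ peak covered the hairpin itself. The MIRLET7I hairpin (chr12:62603686-62603769, plus strand) was in a 1675 bp shRRN3 peak and under a 608 bp shLacZ peak.

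**Figure D1:**
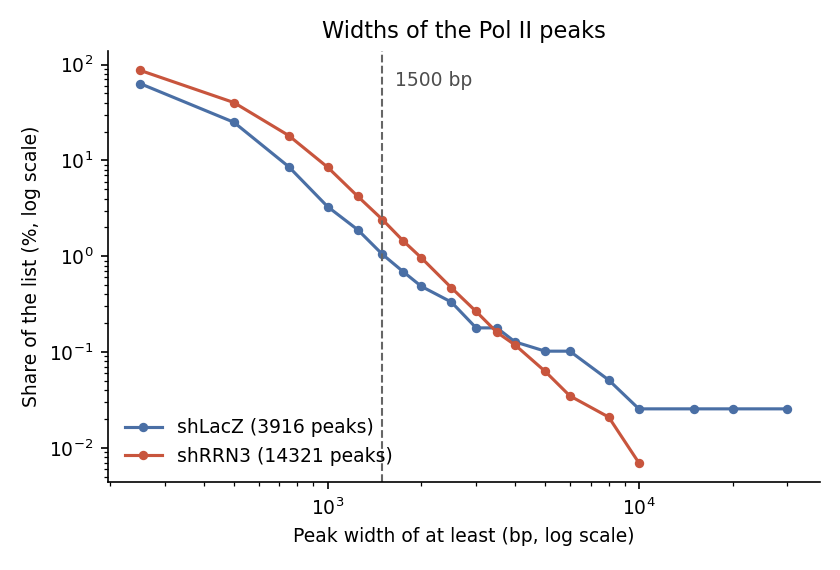
Share of each list (y axis, %, log scale) made up of peaks at least as wide as the value on the x axis (bp, log scale), for 3916 shLacZ and 14321 shRRN3 peaks. At the dashed line of 1500 bp the shRRN3 curve (2.42%) is above the shLacZ curve (1.05%), and the curves cross between 3000 and 3500 bp, beyond which the shLacZ curve runs out to the widest peak of 35798 bp.

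Width itself selected the members, so it is given as a description. Wide shLacZ peaks ran from 1504 to 35798 bp with a median of 1915 bp, and wide shRRN3 peaks from 1500 to 13277 bp with a median of 1855 bp. They made up 8.5% of all bases in shLacZ peaks and 9.8% in shRRN3 peaks. Just inside the limit in shLacZ were a 1504 bp peak at WDR74 (score 661.75), a 1515 bp peak at DNM1L (68.55) and a 1529 bp peak on chromosome 3 (376.25), and just outside it were peaks of 1497 bp in NR6A1 (961.12), 1496 bp at NUMB (77.17) and 1481 bp on chromosome 3 (264.63). In shRRN3 peaks of 1500 bp at PNISR (232.69), of 1500 bp at TMEM223 and NXF1 (193.99) and of 1503 bp on chromosome 6 (757.33) were inside, and peaks of 1498 bp (160.61), 1497 bp (87.55) and 1496 bp at ARPC2 (138.1) were outside. Most members scored high: 37 of 41 shLacZ and 305 of 346 shRRN3 members were in the highest quintile of scores of their list. A few were wide and weak. Those with a score of at most 100 numbered 4 of 41 in shLacZ, at the TSSs of TTC9C, BICD1, DNM1L and SP2, and 31 of 346 in shRRN3.

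The number of wide peaks was 8.44 times higher in shRRN3 than in shLacZ (6.09 to 11.97), and the number of peaks of any width 3.66 times higher (3.53 to 3.79). A single stretch of chromosome 3 set much of the shLacZ figure. Between 168 and 170 Mb lay 15 of the 41 wide shLacZ peaks and 24 of the 346 wide shRRN3 peaks, a ratio of 1.6 (0.81 to 3.28). Outside it the ratio was 12.4 (8.30 to 19.3). Wide shRRN3 peaks made up 6.13% of the list's peaks on chromosome 17, 4.77% on chromosome 20 and 4.65% on chromosome 11, against 0.154% on chromosome 4.

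Positions were compared with the 19970 protein-coding genes of GENCODE release 44, taking the outer bounds of each gene. Among shRRN3 members 156 of 346 held a TSS (45.1%, 39.8% to 50.5%), against 23% of shRRN3 peaks of any width. A TTS was held by 47 (13.6%, 10.2% to 17.7%) against 1.9%, and a whole gene by 8 (2.31%, 1.00% to 4.50%) against 0.14%. Another 76 (21.97%) lay inside a gene without reaching either bound, against 46.9%, and 84 (24.3%) lay outside all protein-coding genes, against 28.8%. A wide interval covers more positions than a narrow one, so a larger share with a TSS or TTS follows in part from the choice by width. Among peaks of the highest score quintile a TTS was held by 13.4% of wide and 3.20% of narrower shRRN3 peaks, and a TSS by 44.9% and 37.6%.

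Among shLacZ members 11 of 41 held a TSS (26.8%, 14.2% to 42.9%) against 24.6% of shLacZ peaks of any width, 3 held a TTS (7.32%, 1.54% to 19.9%) against 1.51%, and 1 held a whole gene (2.44%) against 0.128%. Another 5 (12.2%) lay inside a gene against 40.2%, and 23 (56.1%, 39.7% to 71.5%) lay outside protein-coding genes against 34.1%. Among shLacZ peaks of the highest score quintile a TSS was held by 18.9% of 37 wide and 29.5% of 747 narrower peaks. A TTS was held by 8.11% and 2.68% of them. The share with a TSS was 18.3 points higher in shRRN3 (2.30 to 30.6) and the share outside genes 31.8 points lower (16.0 to 46.5). Without the chromosome 3 stretch these differences became 5.83 points (-13.7 to 23.5) and -11.8 points (-31.4 to 3.18), so neither was larger than its counting error there. With the bounds of 1 transcript per gene, the Ensembl canonical one, 183 shRRN3 members (52.9%) held a TSS and 35 (10.1%) lay inside a gene, and for genes such as EEF1A1 the outer bound lay away from the canonical TSS.

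**Figure D2:**
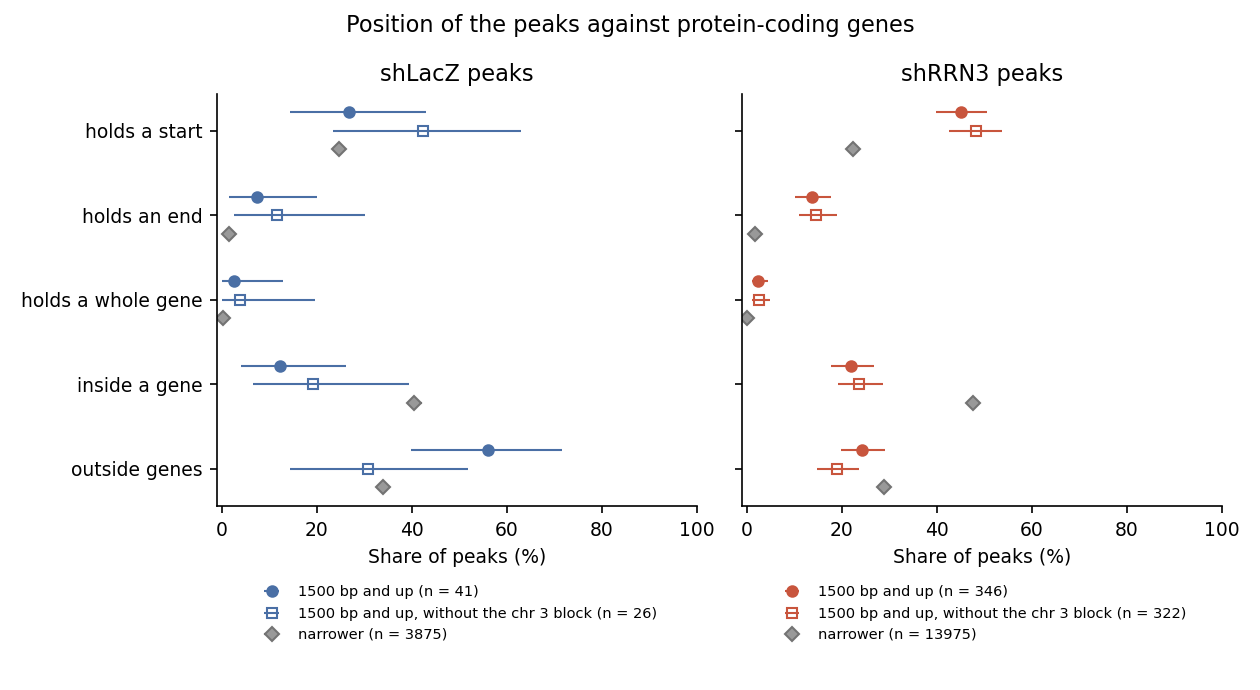
Share of peaks (x axis, %) in each position against protein-coding genes, for shLacZ (left) and shRRN3 (right), with exact 95% intervals. Filled circles are peaks of 1500 bp and up, open squares the same without the chromosome 3 stretch and diamonds narrower peaks. Wide shRRN3 peaks hold a TSS in 45.1% against 22.4% of narrower ones, and the shLacZ share outside genes drops from 56.1% to 30.8% without the chromosome 3 stretch.

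At starts the members reached about as far in both directions. Over 223 pairs of a wide shRRN3 peak and a canonical TSS, the peak began a median of 907 bp before the TSS and ended 894 bp after it, and 110 pairs (49.3%, 42.6% to 56.1%) reached farther into the gene than upstream. In narrower shRRN3 peaks only 38.4% of 4204 pairs did so. Of 183 wide shRRN3 peaks with a canonical TSS, 29 (15.8%) held TSSs on both strands, as at the paired histone genes H2BC11 and H2AC11. The share of narrower shRRN3 peaks was 8.66% (difference 7.19 points, 2.51 to 13.2). In shLacZ it was 2 of 12 wide peaks against 6.14% of narrower ones (difference 10.5 points, -1.54 to 38.7). A wide peak has room for more TSSs, so these differences follow in part from the choice by width.

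At ends the members lay mostly past the gene. Wide shRRN3 peaks held 59 canonical TTSs, beginning a median of 771 bp before and ending 1520 bp past them, and 38 of 59 (64.4%, 50.9% to 76.4%) had more bases past the end than before it. Narrower shRRN3 peaks had the same lean, in 67.7% of 235 (61.3% to 73.6%), so the lean was not particular to the members. A shLacZ peak overlapped the peaks of 43 of these ends. The shRRN3 peak reached farther past the end than the shLacZ peaks in 38 of 43, and farther back into the gene in 37 of 43. Over all 43 ends the median difference was 340 bp past the end and 326 bp back into the gene. The greater reach was thus about equal on either side, and in part it follows from the choice of peaks that were wide in shRRN3. The peak that reached farthest lay across the end of VMP1, an autophagy gene, and ran 4826 bp past it. Next came TPT1, which encodes a translationally controlled tumour protein, with 3875 bp, the amino acid transporter subunit gene SLC3A2 with 3059 bp, the calcium-binding protein gene S100A4 with 3055 bp and the ferritin heavy chain gene FTH1 with 2702 bp.

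The state of the members in the other list was uneven. Of 41 wide shLacZ peaks 40 met a shRRN3 peak (97.6%, 87.1% to 99.9%), against 66.2% of shLacZ peaks of any width, and all 40 met a wide one, against 9.09%. The median wide shLacZ peak was covered to 100%. The exception lay at the TSS of BICD1, a dynein adaptor gene (chr12:32106485-32108075, 1591 bp, score 54.17). Of 346 wide shRRN3 peaks 229 met a shLacZ peak (66.2%, 60.9% to 71.2%), against 16.9% of shRRN3 peaks of any width, and 35 by a wide one (10.1%, 7.15% to 13.8%), against 0.258%. The median wide shRRN3 peak was covered to 32.0%. Overlap rose with score in both lists, so peaks of the highest score quintile were compared: there 72.5% of 305 wide and 41.7% of 2560 narrower shRRN3 peaks were overlapped, a difference of 30.7 points (25.1 to 35.8). In shLacZ 100% of 37 wide and 91.8% of 747 narrower peaks of that quintile were overlapped. That difference of 8.17 points had an interval that spanned 0 (-1.40 to 10.4). Within the quintile the wide peaks still scored higher, with medians of 296.95 against 159.56 in shRRN3 and 618.64 against 138.75 in shLacZ. The comparison therefore did not hold score equal. A wide peak also offers more bases to meet, so overlap is not independent of width.

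The 346 wide shRRN3 peaks fell into 4 states in shLacZ. No peak was found under 117. A wide peak lay under 35. Under the other 194 lay narrower peaks, with a median widest piece of 737 bp. The shLacZ pieces that overlapped a member were then joined where no more than 500 bp lay between them, and the joined run, gaps included, was measured inside the member. At 27 of the 194 the run inside the member was at least 1500 bp, and at the other 167 it was shorter. The median run was 797 bp. Of 3 neighbouring shRRN3 peaks beside LINC02474 on chromosome 1 (chr1:221983245-221990080), the 1709 bp peak held a run of 4 pieces over 1570 bp, the 3394 bp peak a run of 6 pieces over 3129 bp and the 1653 bp peak a run of 2 pieces over 725 bp. The 4682 bp peak at MIR21 held a run of 5 pieces over 3083 bp. At RCC1 and SNHG3 the 2872 bp peak lay wholly under a run of 4 pieces, while the neighbouring 3154 bp peak held a run of 2 pieces over 1663 bp.

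**Figure D3:**
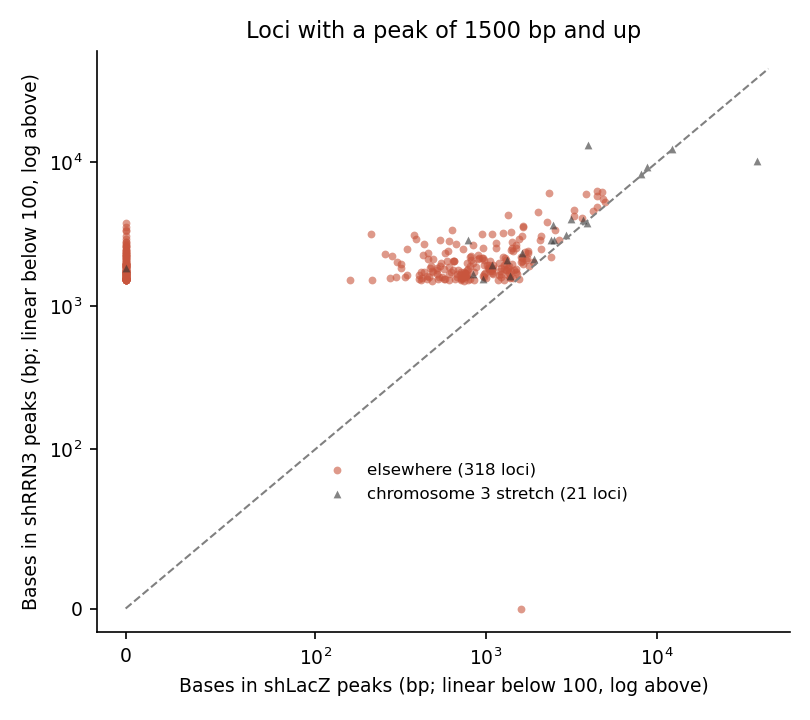
Bases in shLacZ peaks (x axis) and in shRRN3 peaks (y axis) at the 339 loci that hold a peak of 1500 bp and up; both axes are linear below 100 bp and logarithmic above. Points above the dashed line of equality have more bases in shRRN3, the column at 0 holds the 117 loci with no shLacZ peak, and the triangle far to the right is the chromosome 3 locus with 38533 bp of shLacZ peaks and 10226 bp of shRRN3 peaks.

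Of the 339 loci, 33 were wide in both lists, 305 in shRRN3 alone and 1 in shLacZ alone. At 29 of the 33 the shRRN3 peaks had more bases. Outside the chromosome 3 stretch the 22 loci wide in both held 60987 bp of shLacZ peaks and 73554 bp of shRRN3 peaks, a median ratio of 1.17. At TPT1 7 shLacZ peaks covered 4449 bp and 2 shRRN3 peaks 6318 bp. At the gamma-actin gene ACTG1 the bases were 2280 and 3827, at the nuclear lncRNA NEAT1 4778 and 6250, at FTH1 2085 and 3049, and at S100A6, a calcium-binding protein gene, 3278 and 4232. These loci were ordered by their difference, which is therefore a description.

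The chromosome 3 stretch was nearly even between the lists. Over the whole of it shLacZ peaks filled 6.28% of the bases and shRRN3 peaks 6.52%, and at 2 of the 11 loci wide in both lists shLacZ had more bases. It holds MECOM, a transcription factor gene on the minus strand (chr3:169083499-169663775), and other protein-coding genes such as MYNN. It also holds the lncRNA genes LINC02082 (chr3:168902194-168924590, plus strand) and LINC01997 (chr3:169003022-169038416, plus strand). Its densest part, bounded after the data were seen, went the other way: from 168883051 to 169013075, over 130025 bp, shLacZ had 35 peaks that filled 74.4% of the bases and shRRN3 18 peaks that filled 61.3%. Each list had 15 wide peaks there. The wide peaks of the whole stretch held 63.2% of all bases in wide shLacZ peaks and 12.6% in wide shRRN3 peaks.

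The widest shLacZ peak (chr3:168970224-169006021) spanned 35798 bp with a score of 1714.49, from unannotated sequence into LINC01997. Only 7194 of its bases were covered, by a 7218 bp shRRN3 peak at its left end with a score of 262.68. The widest shRRN3 peak (chr3:168949683-168962959) spanned 13277 bp with a score of 157.17, and a 3964 bp shLacZ peak with a score of 1374.01 lay under its right end. The lists thus held different gaps in the same stretch. Both held a peak of the highest score, 3100, within LINC01997, 3887 bp wide in shLacZ and 3761 bp wide in shRRN3. The 11 loci here that were wide in both lists held 89477 bp of shLacZ peaks and 73336 bp of shRRN3 peaks, but their median ratio was 1.06 in favour of shRRN3, so the sum rested on the widest peak.

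**Figure D4:**
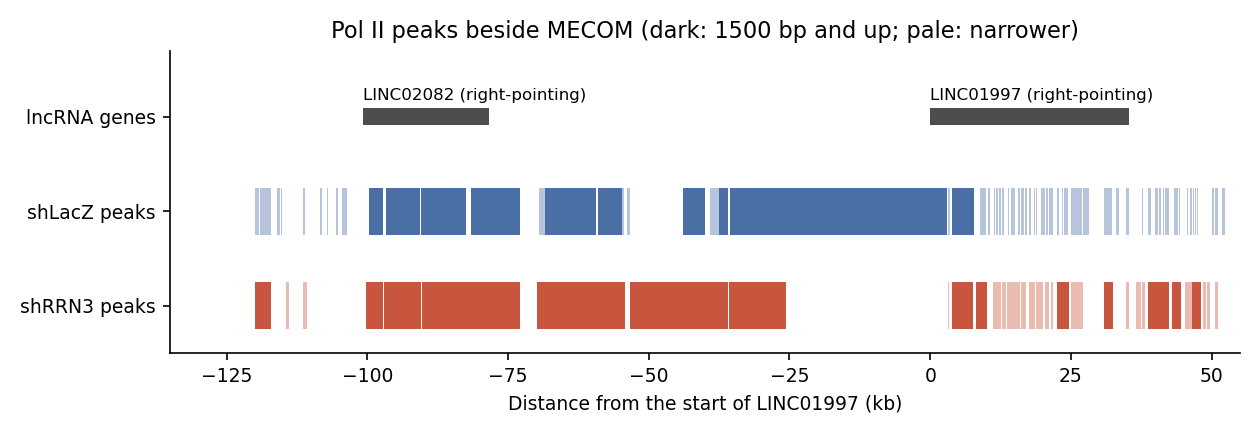
Peaks of both lists beside MECOM, by distance from the start of LINC01997 (x axis, kb). Dark bars are peaks of 1500 bp and up and pale bars narrower ones. The 35798 bp shLacZ peak runs across a gap in the shRRN3 peaks, and the 13277 bp shRRN3 peak runs across a gap in the shLacZ peaks.

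Among other non-coding loci the members covered MALAT1 and NEAT1, abundant nuclear lncRNAs. MALAT1 carried shLacZ peaks of 2689, 2955 and 1891 bp and shRRN3 peaks of 2891 and 5525 bp, the latter with a score of 3086.66 (chr11:65502667-65508191). NEAT1 carried 1 wide shLacZ peak of 1762 bp and 4 wide shRRN3 peaks of 2655, 3595, 3284 and 2379 bp. An annotated lncRNA was touched by 20 of 41 shLacZ and 135 of 346 shRRN3 members, while 10 and 41 members touched no annotated gene of any kind. With canonical bounds 95 shRRN3 members lay outside protein-coding genes, and 28 of those lay within 5000 bp past a TTS. Shares of narrower peaks that touched an lncRNA, touched no gene or lay past a TTS are not given here. A wide peak also meets more annotation than a narrow one, so these counts are descriptions only.

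Wide peaks touched 19 protein-coding genes in shLacZ (0.0951% of 19970) and 318 in shRRN3 (1.59%), and 18 genes were touched in both. The gene families below were read against those shares, as counts without a test. At 0.0951% lists this short would mostly hold none, so a count of 0 in shLacZ is not set apart. Cytosolic ribosomal protein genes were touched at 14 of 86 (16.3%) in shRRN3 and 0 of 86 in shLacZ. A peak of any width touched 77 of the 86 in shRRN3 and 59 in shLacZ, against 6766 and 2362 of all 19970 genes. How much of the 16.3% follows from these genes having a peak at all was not tested. Wide shRRN3 peaks at these genes measured 1523 to 2699 bp with scores of 197.18 to 647.93, and 11 of 14 lay over a shLacZ peak, none of them wide. At RPL12 a 2699 bp peak lay over a shLacZ peak of 665 bp, at RPL3 a 1745 bp peak over 2 shLacZ peaks of at most 782 bp, and at RPL19 a 1631 bp peak over a shLacZ peak of 1343 bp. RPL13, RPL38 and RPS24 had no shLacZ peak under their wide peaks.

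Replication-dependent histone genes, short genes without introns that package new DNA, were touched at 7 of 69 in shRRN3 and 0 in shLacZ, by 4 peaks. A 3063 bp peak held all of H2AC11 and the TSS of H2BC11 with a score of 949.99, above 4 shLacZ pieces of at most 614 bp. A 2142 bp peak held all of H1-2 above 3 pieces of at most 392 bp, a 1836 bp peak held H3C1 and H4C1 above 1 piece of 469 bp, and a 1717 bp peak lay across H1-4 and H2BC5 above 2 pieces of at most 329 bp. Histone genes have near-identical copies, so reads could be shared among them.

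The list of translation factor genes, which also held NACA and TPT1, was touched at 7 of 41 in shRRN3 and 1 of 41 in shLacZ. The 7 were EEF1A1, EIF1, EIF3D, EIF4A2, EIF5, NACA and TPT1, and the 1 was EEF1A1. EEF1A1, the elongation factor that brings aminoacyl-tRNA to the ribosome, had 2 wide peaks in each list, of 1626 and 1756 bp in shLacZ and of 4117 and 2315 bp in shRRN3. EIF1, an initiation factor gene, was covered by 2 adjoining shRRN3 peaks of 3702 and 2442 bp, above shLacZ pieces of at most 1099 bp. Hosts of small nucleolar RNAs were touched at 5 of 29 in shRRN3 (GAS5, SNHG1, SNHG3, SNHG5 and SNHG29) and 0 in shLacZ. Over all lncRNA genes the shares were 0.725% in shRRN3 and 0.0853% in shLacZ. All 7 of the peaks at these hosts lay over shLacZ pieces. The SNHG1 peak was the widest outside chromosome 3, with 5814 bp and a score of 1025.86 above 6 pieces.

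Genes for hnRNP and SR splicing factors were touched at 7 of 38 in shRRN3 and 0 in shLacZ, actin cytoskeleton genes at 4 of 29 and 1, intermediate filament, lamin and tubulin genes at 4 of 18 and 0, and genes of ATF4 and the unfolded protein response at 3 of 22 and 0. At SRSF2 a 2043 bp peak lay over a 594 bp shLacZ peak, at the vimentin gene VIM a 1508 bp peak over one of 607 bp, and at ATF4 a 1979 bp peak over one of 836 bp. In shRRN3 2 of 32 immediate early genes were touched (6.25%, JUN and DUSP6) and 2 of 19 glycolysis genes (10.5%, ALDOA and PKM). Heat shock chaperones were touched at 2 of 18 (11.1%, HSPA8 and HSPA9). Ferritin and NRF2 targets were touched at 2 of 14 (14.3%, FTH1 and FTL, with FTH1 also in shLacZ). The histone share above was 10.1%. ID1, which blocks differentiation factors, was the only one of 4 ID genes touched. A 5267 bp shRRN3 peak with the top score of 3100 held the whole gene, where shLacZ had 2 adjoining wide peaks of 2392 and 2585 bp.

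No wide peak touched a nucleolar or Pol I gene (0 of 22 in both lists), though 5 and 15 of them were touched by some peak, nor the genes COMMD3 and BMI1, whose widest peak, within 2000 bp, spanned 345 bp in shLacZ and 285 bp in shRRN3. Among autophagy genes VMP1 was touched in shRRN3, 1 of 39. BECN1 had 1 narrower shRRN3 peak of 838 bp, OPTN one of 584 bp, RPTOR 3 of at most 488 bp and ATG5 5 of at most 873 bp, all within 2000 bp of the gene and with no shLacZ peak at any of the 4. RRN3 and ATG16L1 had no peak in either list. Of 14 ovarian and epithelial marker genes none was touched by a wide peak, and 1 in shLacZ and 5 in shRRN3 by any peak. Markers of other cell types gave 0 wide peaks, with 1 and 3 of 14 touched by any peak. Wide shRRN3 peaks touched 1.59% of all protein-coding genes, so lists as short as these would often hold none. Their counts of 0, and the 1 of 39 (2.56%) for autophagy genes, were not set apart from that share.

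The 117 wide shRRN3 peaks with no shLacZ peak scored lower, with a median of 176 and a highest score of 532.03, than the 229 with one, whose median was 338. They lay inside a gene more often (29.9% against 17.9%, difference 12.01 points, 2.68 to 21.9, and 6.67 points, -0.07 to 14.7, with canonical bounds) and outside genes less often (16.2% against 28.4%, difference -12.1 points, -20.5 to -2.68). Without the chromosome 3 stretch the share outside genes was 15.5% against 20.9%, and the difference of -5.36 points (-13.5 to 3.804) was within its counting error, while the difference inside a gene was 10.3 points (0.593 to 20.4). The shares with a TSS were 46.2% and 44.5%, and that difference had an interval from -9.29 to 12.6. The highest scoring lay over the lncRNA gene HIF1A-AS3 and outside protein-coding genes (chr14:61749129-61750695, 1567 bp, score 532.03). Next were a 2460 bp peak at RRM2, which encodes a ribonucleotide reductase subunit (score 487.47), a 1671 bp peak at PNRC2 (442.16) and a 2766 bp peak at CAPRIN2 (431.91). Peaks of 2330 bp at the zinc transporter gene SLC39A10, 1694 bp at S100A2, 2146 bp at ANXA4 and 1936 bp at CYP1B1 held the canonical TSSs of those genes while lying inside their outer bounds.

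In each list the highest scoring members lay at a few loci, which the lists shared only in part. Scores of 3100, the highest in the lists, were given to the shRRN3 peaks at ID1 and the VMP1 end and to the LINC01997 peaks, and scores above 2500 to shRRN3 peaks at MALAT1 (3086.66), TPT1 (2971.15), MIR21 (2855.23), LINC02082 (2642.37) and EEF1A1 (2508.5). At the VMP1 end 5 shLacZ peaks lay under the 4864 bp shRRN3 peak, of which the widest was 2773 bp with a score of 2894.12. At TPT1 the 7 shLacZ pieces reached a width of 1537 bp and a score of 338.42. A 4578 bp shRRN3 peak with a score of 1116.18 held the whole of HCFC1R1 and reached into CLDN6, TNFRSF12A and THOC6, and 2 wide shLacZ peaks of 1930 and 2272 bp lay beneath it.

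The S100 gene cluster on chromosome 1, picked out after its values were seen, showed both states side by side. S100A6 carried a 4232 bp shRRN3 peak that held the whole gene (score 1326.39) and a 1569 bp shLacZ peak at its TSS (195.64). The neighbouring shRRN3 peaks of 3749 bp across S100A5 and S100A4, of 1665 bp at S100A4 and of 1694 bp at S100A2 had no shLacZ peak beneath them. The weakest member to hold a whole gene, a 2770 bp peak over GNG3 and the canonical TSS of BSCL2 with a score of 59.33, had none either.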

How the data were processed

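The authors made Pol II ChIP-seq libraries from SK-OV-3 cells with 2 hairpins and deposited 1 list of called peaks for each hairpin. The deposited columns hold coordinates, a peak name and a peak score, named against GRCh38 (hg38) in the submitters' notes. The peak caller's version, threshold and use of the input are not given in the sources used here. Peak names carry the name of the MACS program. Scores of the lists were not put on a common scale. Depth is unknown from the lists, so precision is given by counts of peaks alone.

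Peaks of at least 1500 bp on chromosomes 1 to 22 and X were kept. The members and the gene lists were chosen with earlier results of these data known. Positions used GENCODE 44, an overlap meant at least 1 shared base, and intervals were computed with scipy 1.17.1 under Python 3.11.15. Functions were tested on simulated peaks and overlap counts checked with bedtools 2.31.1. Genes were named by fixed ranks: the 10 widest and 10 highest scoring members of each list, members holding a whole gene, the 10 reaching farthest past an end, the 10 highest scoring without a counterpart, genes of the fixed lists, loci wide in both lists that differed most, and the 3 peaks nearest the width limit on either side. The promoter words and the joined pieces of the other list were chosen after the data were seen. Alternatives covered other width limits, joined peaks, a shortened shRRN3 list, other gene bounds and overlap rules, and removal of dense stretches. Wide peaks on other sequences entered no comparison. The sequence of 1 region is not reported here.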

Additional observations from a re-analysis of the deposited data

Results flagged for a closer look

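Wide peaks also appeared outside chromosomes 1 to 22 and X, in sequences that entered no comparison. The shLacZ list held 3 among 98 such peaks and the shRRN3 list 1 among 42. Of the 3, 2 lay on the mitochondrial genome (2945 bp with a score of 122.77 and 1659 bp with a score of 222.48), where the shRRN3 list had no peak. The other one, 1898 bp wide with a score of 3100, lay on another sequence, as did the shRRN3 peak, 1882 bp wide with the same score.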

How the results depend on the processing

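No paired analysis was possible because each hairpin had 1 Pol II library, and no library could be left out. Of 152 values recomputed, 82 stayed and 70 moved. Shares stayed if within their 95% interval, counts if within 1.5 times, and medians of the covered share if within their quartiles. Those quartiles were wide. With a limit of 1000 bp the median covered share in shRRN3 fell from 32.0% to 0%. It was counted as staying because its lower quartile was 0%. In each sentence that follows, shares are of the wide peaks unless said otherwise, and the cause of a change was not tested.

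With peaks joined at gaps of up to 500 bp, wide peaks numbered 93 in shLacZ (2.66% of peaks) and 736 in shRRN3 (5.85%). With a limit of 1000 bp there were 129 (3.29%) and 1218 (8.50%), touching 91 and 1156 genes; 35.7% and 18.7% lay outside genes, 69.0% and 2.87% had a wide counterpart, and in shRRN3 8.21% held a TTS and 45.6% were overlapped. With a limit of 2000 bp there were 19 (0.485%) and 138 (0.964%), touching 6 and 112 genes. Of these 73.7% and 30.4% lay outside genes, 100% and 75.4% were overlapped, 100% and 21.7% had a wide counterpart, and in shRRN3 35.5% held a TSS and 21.0% a TTS. In a shRRN3 list reduced to its 3916 highest scores, 8.02% were wide and 71.7% of those overlapped. Without the 48 densest bins of 1 Mb, 12 (0.382%) and 229 (1.80%) remained. The 12 touched 12 genes, with 41.7% inside a gene, 16.7% outside, 100% overlapped and 100% with a wide counterpart. Of the 229, 52.8% held a TSS, 15.7% lay outside genes and 4.803% had a wide counterpart.

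Against all annotated genes the shLacZ shares were 43.9% (TSS), 24.4% (TTS), 19.5% (whole), 29.3% (inside) and 24.4% (outside), and the shRRN3 shares 55.2%, 24.6%, 11.6% and, outside, 11.8%. Against every transcript 2.44% of shLacZ peaks lay inside a gene, and in shRRN3 60.4% held a TSS, 21.7% a TTS and 6.07% lay inside. A TSS and a TTS of the same gene, not necessarily of the same transcript, were held by 10.1% of shRRN3 peaks. A 500 bp flank gave 18.8% (TTS) and 17.6% (inside) in shRRN3. Asking for 50% coverage left 31.8% of shRRN3 peaks overlapped, and a counterpart of at least 1000 bp was found for 23.4%.

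Chosen after the data were seen were canonical transcripts, with 52.9% (TSS) and 10.1% (inside) in shRRN3, and pieces of the other list joined, with 21.1% of shRRN3 peaks overlapping a run of at least 1500 bp that could extend past them. Removal of the chromosome 3 stretch, also chosen then, left 26 wide shLacZ peaks (0.681%). It gave shares outside genes of 30.8% and 18.9%, and 6.83% of shRRN3 peaks with a wide counterpart. Read depth is not known from the lists, which limits all of these values.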
